A study of Arabidopsis thaliana with 12 samples.

Results

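Cold-treated Arabidopsis thaliana seedlings were examined for 46 nuclear genes that encode the proteins of the photosynthetic light reactions and the small subunit of Rubisco. The genes were listed by locus identifier and comprised 6 photosystem I antenna genes (LHCA), 9 genes of the major and 5 of the minor photosystem II antenna (LHCB), 4 Rubisco small subunit genes (RBCS), 12 photosystem I core genes (PSA) and 10 photosystem II genes (PSB). All 46 were present among the 24616 gene rows of the deposited table, and all 46 passed the filter on low values that left 20666 genes for testing. The seedlings were 14-day-old plants of the wild type Col and of the mutant line cbfs-1, raised on ½ MS medium under long days at 22 °C and then held at 4 °C for 0 h, 3 h or 24 h. Each of the 6 groups had 2 RNA sequencing libraries, 12 in all, made from seedlings of 1 age and 1 growth regime. The lesion of cbfs-1 is not stated in the labels, and nothing in them tells if replicate libraries had separate plants as their source, so each p-value reflects library spread alone. In each series of values below, replicate 1 comes first and replicate 2 second.

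Light-harvesting proteins bind chlorophyll and pass excitation energy to the reaction centres of the photosystems, which drive electrons from water to ferredoxin across the thylakoid membrane. The reaction centre proteins and the large subunit of Rubisco are encoded in the chloroplast, whereas the antenna proteins, many peripheral core subunits and the Rubisco small subunit are encoded in the nucleus and imported. Their transcripts are among the most abundant of green tissue, are induced by light and follow the circadian clock, and many of the proteins are encoded by several paralogs.

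Paralogs of a family had unequal changes at 24 h, and the upstream regions of 4 genes are shown to compare 2 such pairs, PSAD1 with PSAD2 and LHCB4.1 with LHCB4.2. Each run holds the 250 bases before the annotated start of the gene in assembly TAIR10.1 (RefSeq), written 5′ to 3′ on the strand of the gene. Capitals mark matches, on either strand, to the motifs CACGTG (the G-box), GATAAG (the I-box), CCAATC, AAAATATCT (the evening element) and CCGAC (the core of the element that CBF proteins bind).
PSAD1: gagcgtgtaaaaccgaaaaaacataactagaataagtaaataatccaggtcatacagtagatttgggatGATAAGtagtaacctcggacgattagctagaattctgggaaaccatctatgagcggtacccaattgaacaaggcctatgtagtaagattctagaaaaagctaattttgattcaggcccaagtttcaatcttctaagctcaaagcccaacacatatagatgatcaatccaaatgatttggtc
PSAD2: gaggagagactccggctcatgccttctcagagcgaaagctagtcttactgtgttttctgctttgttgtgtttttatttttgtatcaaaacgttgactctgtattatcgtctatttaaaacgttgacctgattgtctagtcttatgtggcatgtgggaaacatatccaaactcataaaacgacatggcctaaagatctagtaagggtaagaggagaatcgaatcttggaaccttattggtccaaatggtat
LHCB4.1: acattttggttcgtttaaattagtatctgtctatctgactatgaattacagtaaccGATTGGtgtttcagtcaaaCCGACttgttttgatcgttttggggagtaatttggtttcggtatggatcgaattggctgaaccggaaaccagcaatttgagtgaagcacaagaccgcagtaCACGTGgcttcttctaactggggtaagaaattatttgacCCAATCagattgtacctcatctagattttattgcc
LHCB4.2: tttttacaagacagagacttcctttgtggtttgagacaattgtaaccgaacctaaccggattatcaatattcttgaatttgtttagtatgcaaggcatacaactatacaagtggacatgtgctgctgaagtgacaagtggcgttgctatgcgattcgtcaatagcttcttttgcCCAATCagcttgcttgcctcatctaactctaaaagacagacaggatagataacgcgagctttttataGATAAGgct
The PSAD1 run lies at chr4:1230165-1230414, minus strand, and that of PSAD2 at chr1:754263-754512, minus strand. The LHCB4.1 run lies at chr5:208616-208865, plus strand, and that of LHCB4.2 at chr3:2717307-2717556, plus strand. In these runs the PSAD1 window held 1 GATAAG, 181 bases before the start, and the PSAD2 window held none of the 5 motifs. The LHCB4.1 window held CACGTG 74 bases, CCGAC 175 bases and CCAATC 194 and 35 bases before the start, and the LHCB4.2 window held CCAATC 76 bases and GATAAG 9 bases before it. No matches overlapped in these 4 windows.

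Over all 46 genes, CACGTG occurred in the window of 9 genes (19.6%), against 6.49% of the windows of 27443 protein-coding genes. GATAAG occurred in 10 (21.7% against 12.3%), CCAATC in 11 (23.9% against 10.2%), AAAATATCT in 1 (2.17% against 2.36%) and CCGAC in 3 (6.52% against 11.97%). Among the 20 genes that were lower in both genotypes at 24 h, described next, CACGTG was found in 4, GATAAG in 5, CCAATC in 3 and CCGAC in 1. Of the 24 genes called in neither genotype, CACGTG was found in 4, GATAAG in 4, CCAATC in 8 and CCGAC in 2. A match describes letters in the window and was not tested as a binding site.

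The libraries held 16849042 to 22800552 reads, and the 46 genes took 10.8% to 17.1% of them. Before any cold, replicate 1 gave them more reads than replicate 2, 17.1% against 13.6% in wild type and 16.7% against 13.7% in cbfs-1. After 3 h the shares were 16.0% and 14.0% in wild type and 15.7% and 13.7% in cbfs-1. At 24 h they were 10.8% and 11.96% in wild type and 11.97% and 12.3% in cbfs-1, below every earlier library. Of the genes that the mutant line is named for, CBF3 was lower in cbfs-1 than in wild type at 3 h alone, at 1095 to 1158 against 6133 to 7126, and higher at 0 h (138 to 175 against 7.59 to 15.3) and 24 h (799 to 893 against 180.3 to 404). CBF1 stood in wild type at 1.08 to 2.18 (0 h), 1129 to 2023 (3 h) and 22.4 to 69.8 (24 h), and in cbfs-1 at 1.03 to 1.89, 1540.4 to 2475 and 38.1 to 78.7. CBF2 stood in wild type at 2.17 to 24.0 (0 h), 5093 to 6769 (3 h) and 239 to 569 (24 h), and in cbfs-1 at 12.3 to 63.1, 7569.9 to 8377 and 448 to 941. These levels were not tested here.

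**Figure D1:**
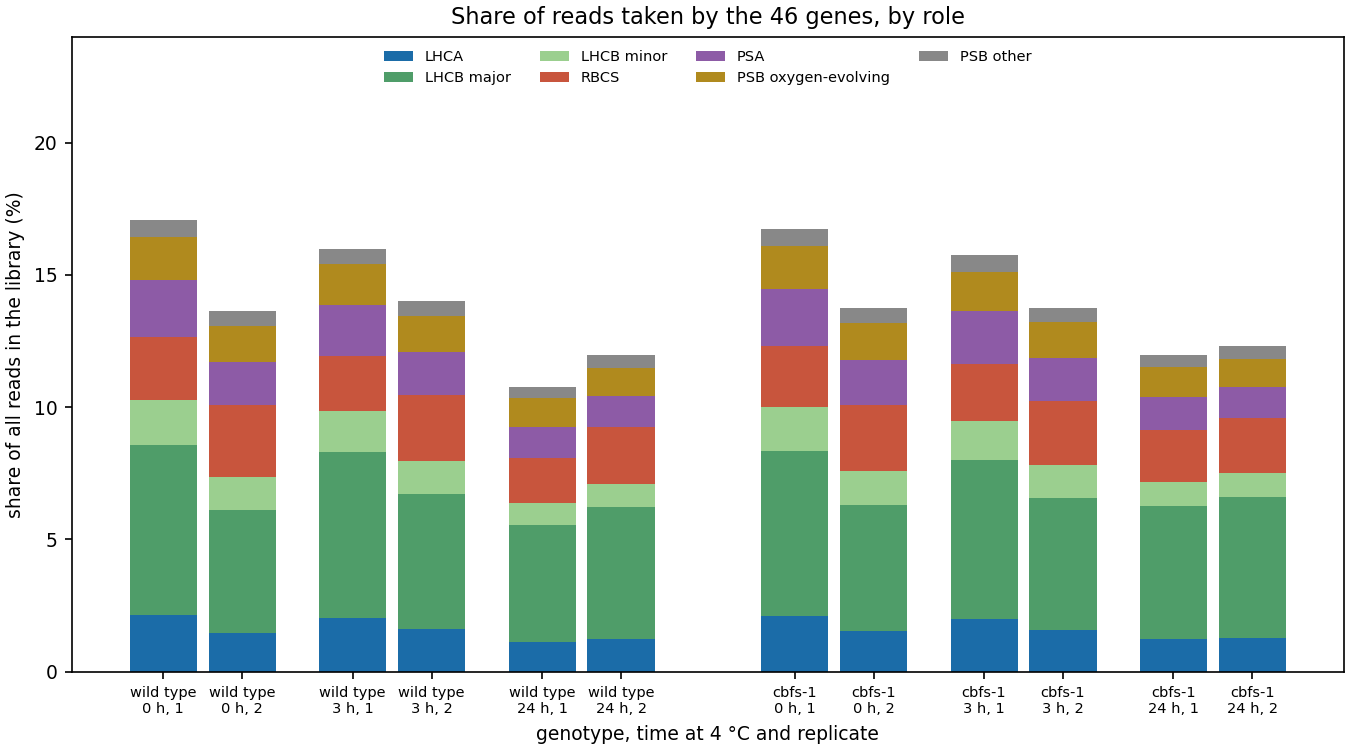
Share of all reads in each of the 12 libraries that fell on the 46 genes, stacked by role, in percent (vertical axis) for each genotype, time at 4 °C and replicate (horizontal axis). Its 24 h libraries hold 10.8% to 12.3%, below the 13.6% to 17.1% of the 0 h and 3 h libraries, and replicate 1 exceeds replicate 2 at 0 h and 3 h.

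After 24 h in the cold, genes from every role had fallen, but unevenly. The deepest falls were those of PSAD2, which docks ferredoxin at photosystem I, the antenna genes LHCB2.3, LHCB4.2 and LHCA6, and PSAH2, which left 24.7%, 28.2%, 29.9%, 32.7% and 44.0% of the 0 h level in wild type. The most abundant genes, LHCB1.3 and RBCS1A, did not pass the test. In wild type 21 of 46 fell, 1 rose (LHCA5) and 24 did not pass (limma on log2 of the normalized read count plus 1, adjusted p below 0.05), with a median log2 change of -0.48. Across all genes tested 50.0% were called in this comparison, 24.3% lower and 25.7% higher, with a median of 0.00. In cbfs-1 20 fell, 1 rose and 25 did not pass, with a median of -0.44, against 48.2% of all genes called, 23.3% lower and 24.9% higher. The estimate was below 0 for 43 of the 46 genes in wild type and for 41 in cbfs-1. Both 24 h libraries lay below both 0 h libraries for 34 of the 46 in wild type, against 37.8% of all genes, and for 37 of the 46 in cbfs-1, against 38.2%. The genes that fell in cbfs-1 all fell in wild type as well (20 genes), and RBCS2B passed in wild type alone. The 2 comparisons have separate 0 h libraries, but same-numbered libraries of the genotypes deviated together (correlation across the 46 genes of 0.983 at 0 h and 0.912 at 24 h), so the genotypes are not independent repeats. With the replicate number as a block, 35 of the 46 genes fell in each genotype, against 27.8% of all genes in wild type and 26.9% in cbfs-1. With a separate replicate term for the 24 h libraries 40 fell in wild type and 39 in cbfs-1, against 30.7% and 29.8% of all genes, so many genes given here as not passing did pass in those fits. In RNA from whole seedlings, fewer green cells and less RNA per cell cannot be told apart. Without the first cbfs-1 library at 0 h, or without either cbfs-1 library at 24 h, fewer of the 46 genes were called in cbfs-1. In wild type the same held without its first library at 0 h or either library at 24 h. There were no seedlings kept at 22 °C for 3 h or 24 h, so time in the experiment and cold cannot be told apart.

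**Figure D2:**
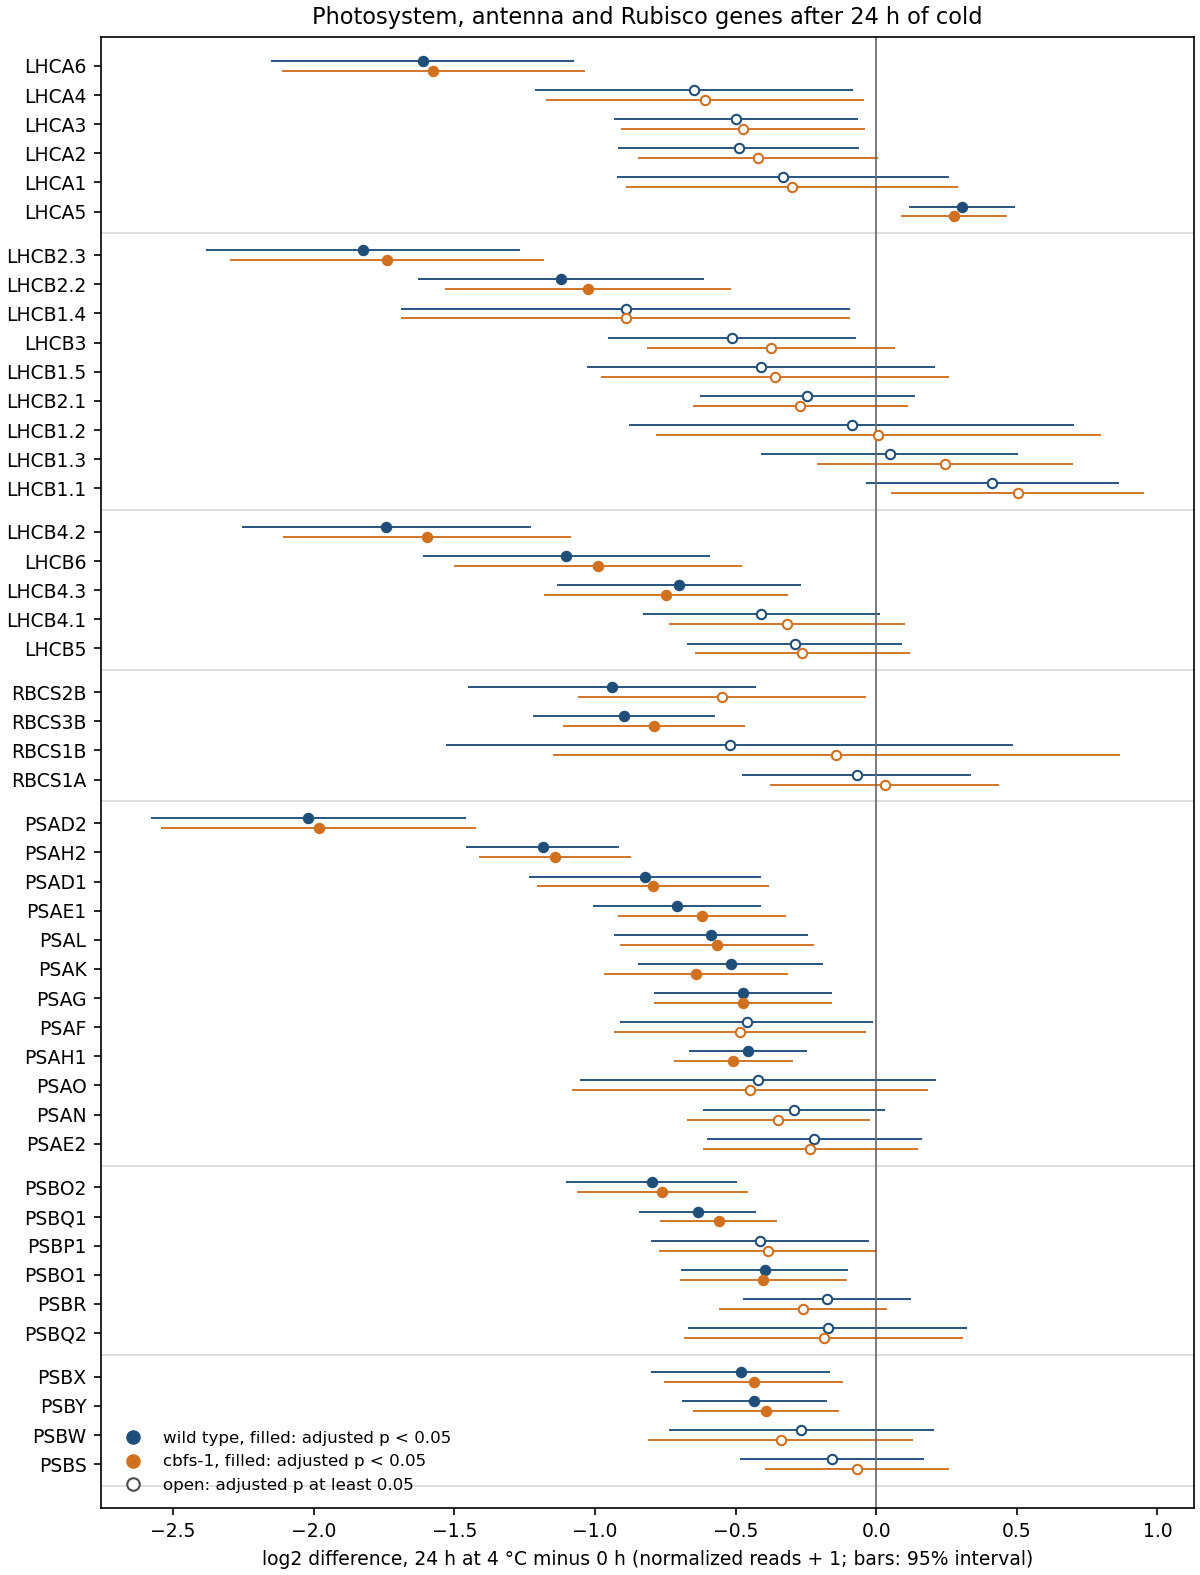
Log2 difference between 24 h and 0 h at 4 °C for each of the 46 genes (rows, grouped by role) in wild type and cbfs-1, with 95% intervals from limma, filled where the adjusted p is below 0.05. PSAD2 is the lowest at -2.02 and -1.98, LHCA5 is called higher at 0.31 and 0.28, and LHCB1.1 has the highest estimates (0.41 and 0.50) without passing.

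Of the photosystem I antenna genes, LHCA6 fell and LHCA5 rose in both genotypes, while LHCA1 to LHCA4 did not pass. LHCA1 to LHCA4 form the crescent of antenna proteins along the photosystem I core, whereas LHCA5 and LHCA6 are minor proteins that link photosystem I to the chloroplast NDH complex. In wild type LHCA6 (AT1G19150) stood at 2419 and 2134 (0 h), 1629.8 and 1924 (3 h) and 579 and 952 (24 h) normalized reads. LHCA6 in cbfs-1 stood at 2233 and 1934 (0 h), 1537 and 1669 (3 h) and 566 and 858 (24 h). All 24 h libraries were lower than every 0 h and 3 h library. The log2 change at 24 h was -1.61 in wild type (SE 0.24, adjusted p = 0.000586) and -1.58 in cbfs-1 (SE 0.24, adjusted p = 0.000732), leaving LHCA6 at 32.7% and 33.6% of its 0 h level. In wild type LHCA5 (AT1G45474) stood at 2091 and 2051 (0 h), 2174 and 2088 (3 h) and 2405 and 2727 (24 h). LHCA5 in cbfs-1 stood at 2245 and 2051 (0 h), 2094 and 2002 (3 h) and 2594 and 2603 (24 h). In each genotype the 24 h libraries lay above the 0 h libraries. The LHCA5 change was 0.31 in wild type (SE 0.08, adjusted p = 0.0136) and 0.28 in cbfs-1 (SE 0.08, adjusted p = 0.0225). The LHCA5 call did not pass (adjusted p in brackets) in wild type without 0 h replicate 2 (0.0612) or 24 h replicate 2 (0.0933), with the compared groups fitted alone (0.0691), or in cbfs-1 without 0 h replicate 2 (0.137), 24 h replicate 1 (0.0856) or 24 h replicate 2 (0.0861).

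LHCA4 (AT3G47470), the most abundant of the 6 by reads, stood in wild type at 135461 and 89902 (0 h), 126908 and 105413 (3 h) and 64512 and 76775 (24 h). LHCA4 in cbfs-1 stood at 135295 and 91873 (0 h), 128120.1 and 99966 (3 h) and 68635 and 77791 (24 h). Its replicates at 0 h were far apart, and the second 0 h library of each genotype was closer to the 24 h libraries than the first. The LHCA4 change of -0.65 in wild type (95% interval -1.21 to -0.08) and -0.61 in cbfs-1 (-1.18 to -0.04) did not pass. LHCA1, LHCA2 and LHCA3 had estimates of -0.50 to -0.30 in the 2 genotypes, also without passing. Per kb of annotated exon, LHCA4 (87361 normalized reads per kb at 0 h) and LHCA1 (69439.5) were far above LHCA5 (1969.6) and LHCA6 (1876), so the 2 called members had the lowest levels of the 6.

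The major antenna of photosystem II, the LHCII trimer, is built from LHCB1, LHCB2 and LHCB3 proteins, and 2 of its 9 genes fell in each genotype. Both were LHCB2 paralogs, and no LHCB1 gene passed in this limma fit, which had no replicate term. In wild type LHCB2.3 (AT3G27690) stood at 32387 and 20093 (0 h), 25058 and 23461 (3 h) and 6172 and 8391 (24 h). LHCB2.3 in cbfs-1 stood at 29203 and 20403 (0 h), 23137 and 20979.7 (3 h) and 6556 and 8151 (24 h). Every 24 h library was below every earlier one. The change was -1.83 in wild type (SE 0.25, adjusted p = 0.000366) and -1.74 in cbfs-1 (SE 0.25, adjusted p = 0.000519), leaving 28.2% and 30.0% of the 0 h level. In wild type LHCB2.2 (AT2G05070) stood at 69223 and 52124 (0 h), 59529 and 57767 (3 h) and 23287 and 32744 (24 h). LHCB2.2 in cbfs-1 stood at 64119 and 50324 (0 h), 54979.8 and 54039 (3 h) and 23328 and 33410.0 (24 h). Its 24 h libraries also lay below all others, with a change of -1.12 in wild type (SE 0.23, adjusted p = 0.00302) and -1.02 in cbfs-1 (SE 0.23, adjusted p = 0.00509). The third paralog, LHCB2.1 (AT2G05100), had a change of -0.25 in wild type (95% interval -0.63 to 0.14) and -0.27 in cbfs-1 (-0.65 to 0.11) and did not pass. LHCB2.1 (chr2:1822990-1824480) and LHCB2.2 (chr2:1799234-1800472) lie near each other on chromosome 2, whereas LHCB2.3 (chr3:10255906-10257489) is on chromosome 3 and shares 595 bases of its annotated span with a gene on the opposite strand.

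LHCB1.3 (AT1G29930) had the most reads of the 46 genes, and per kb of exon it was the most abundant at 0 h, at 270234 normalized reads per kb, ahead of RBCS1A (214880.0), LHCB1.5 (138529) and LHCB1.1 (109881). In wild type LHCB1.3 stood at 368994 and 301645 (0 h), 367391 and 317982 (3 h) and 325181 and 365546 (24 h). LHCB1.3 in cbfs-1 stood at 358156 and 300754 (0 h), 349144 and 307910.3 (3 h) and 369246 and 409341 (24 h). The wild type libraries overlapped between times, and in cbfs-1 the 24 h libraries were above those at 0 h. The LHCB1.3 change was 0.05 in wild type (95% interval -0.41 to 0.50) and 0.24 in cbfs-1 (-0.21 to 0.70). In wild type LHCB1.2 (AT1G29910) stood at 150344 and 83022 (0 h), 144135 and 93312 (3 h) and 111609 and 99214 (24 h). LHCB1.2 in cbfs-1 stood at 148865 and 88211 (0 h), 136300.3 and 91146 (3 h) and 122572 and 108289 (24 h). All 24 h values lay between the 0 h replicates in both genotypes, and the change was -0.09 in wild type (95% interval -0.88 to 0.71) and 0.01 in cbfs-1 (-0.78 to 0.80). LHCB1.1 (AT1G29920) had 0.41 in wild type (95% interval -0.04 to 0.86) and 0.50 in cbfs-1 (0.05 to 0.95), with the 24 h libraries above the 0 h libraries in both genotypes, and did not pass. LHCB1.4 (AT2G34430) had -0.89 in wild type (95% interval -1.69 to -0.09) and -0.89 in cbfs-1 (-1.69 to -0.09), which did not pass although its size exceeded that of 12 called falls in wild type. LHCB1.5 and LHCB3 had estimates of -0.51 to -0.36 and did not pass.

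The LHCB1 genes form 2 clusters. LHCB1.2 (chr1:10472280-10473502), LHCB1.1 (chr1:10474656-10475969) and LHCB1.3 (chr1:10477885-10479114) are neighbours on chromosome 1, and LHCB1.5 (chr2:14522524-14523568) and LHCB1.4 (chr2:14524607-14525918) are neighbours on chromosome 2. The first 90 coding bases of the chromosome 1 genes are shown because reads from such copies are hard to assign. Capitals mark the 9 positions at which the 3 genes are not all the same.
LHCB1.1: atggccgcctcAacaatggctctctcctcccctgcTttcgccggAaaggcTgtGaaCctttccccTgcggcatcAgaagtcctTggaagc
LHCB1.2: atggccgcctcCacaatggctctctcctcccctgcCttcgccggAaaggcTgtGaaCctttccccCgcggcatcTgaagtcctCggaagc
LHCB1.3: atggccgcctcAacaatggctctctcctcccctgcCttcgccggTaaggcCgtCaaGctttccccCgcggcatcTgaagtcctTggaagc
These exon stretches lie at chr1:10475803-10475892 on the minus strand, chr1:10473157-10473246 on the minus strand and chr1:10478071-10478160 on the plus strand, respectively, in TAIR10.1. Over the whole coding sequence the 3 genes were 95.6% to 96.4% identical, with identical runs of up to 119 bases. How the authors' counting treated reads that match several genes was not given in any source used here, so the split between LHCB1.1, LHCB1.2 and LHCB1.3 is uncertain. The same holds for RBCS1B, RBCS2B and RBCS3B, which were 96.7% to 97.3% identical with runs of up to 230 bases. The other paralogs were less alike, at 92.5% for LHCB1.4 and LHCB1.5, 91.8% for LHCB2.1 and LHCB2.2, 88.0% for PSAD1 and PSAD2, and 81.9% for LHCB4.1 and LHCB4.2.

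The minor antenna proteins LHCB4 (CP29), LHCB5 (CP26) and LHCB6 (CP24) are monomers that connect LHCII trimers to the photosystem II core, and 3 of their 5 genes fell in each genotype. In wild type LHCB4.2 (AT3G08940) stood at 53012 and 37666 (0 h), 42549 and 36444 (3 h) and 11471 and 15567 (24 h). LHCB4.2 in cbfs-1 stood at 51472 and 37856 (0 h), 40986 and 35253 (3 h) and 12931 and 16473 (24 h). Both replicates at 24 h were far below all others. The change was -1.74 in wild type (SE 0.23, adjusted p = 0.000301) and -1.60 in cbfs-1 (SE 0.23, adjusted p = 0.000521), leaving 29.9% and 33.1% of the 0 h level. In wild type LHCB6 (AT1G15820) stood at 84229 and 56751 (0 h), 74521 and 57203 (3 h) and 31035 and 33452 (24 h). LHCB6 in cbfs-1 stood at 81949 and 58553 (0 h), 66132 and 54812 (3 h) and 33739.6 and 36099 (24 h). It too was lowest in the 24 h libraries, with a change of -1.10 in wild type (SE 0.23, adjusted p = 0.00342) and -0.99 in cbfs-1 (SE 0.23, adjusted p = 0.00622). The LHCB6 call did not pass (adjusted p in brackets) in cbfs-1 without 0 h replicate 1 (0.0537). In wild type LHCB4.3 (AT2G40100), a CP29 isoform, stood at 889 and 1069 (0 h), 750.3 and 847 (3 h) and 515 and 697 (24 h). LHCB4.3 in cbfs-1 stood at 994 and 1097 (0 h), 685 and 925 (3 h) and 549 and 703 (24 h). Unlike most members it was higher in replicate 2 than in replicate 1 in all 6 groups. Its change was -0.70 in wild type (SE 0.19, adjusted p = 0.0140) and -0.75 in cbfs-1 (SE 0.19, adjusted p = 0.0108). The LHCB4.3 call did not pass (adjusted p in brackets) in wild type without 0 h replicate 2 (0.0846) or 24 h replicate 1 (0.112), or in cbfs-1 without 0 h replicate 2 (0.0584) or 24 h replicate 1 (0.0884). LHCB5 (AT4G10340) stood in wild type at 103636 and 82518 (0 h), 100327 and 85994 (3 h) and 77369.7 and 73941 (24 h). LHCB5 in cbfs-1 stood at 100692 and 82481 (0 h), 97267 and 81649 (3 h) and 78166 and 73854 (24 h). After 24 h all libraries lay below those at 0 h by a small margin, with a change of -0.29 in wild type (95% interval -0.67 to 0.09) and -0.26 in cbfs-1 (-0.65 to 0.12) that did not pass. LHCB4.1 (AT5G01530) likewise did not pass, at -0.41 in wild type (95% interval -0.83 to 0.01) and -0.32 in cbfs-1 (-0.74 to 0.10).

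**Figure D3:**
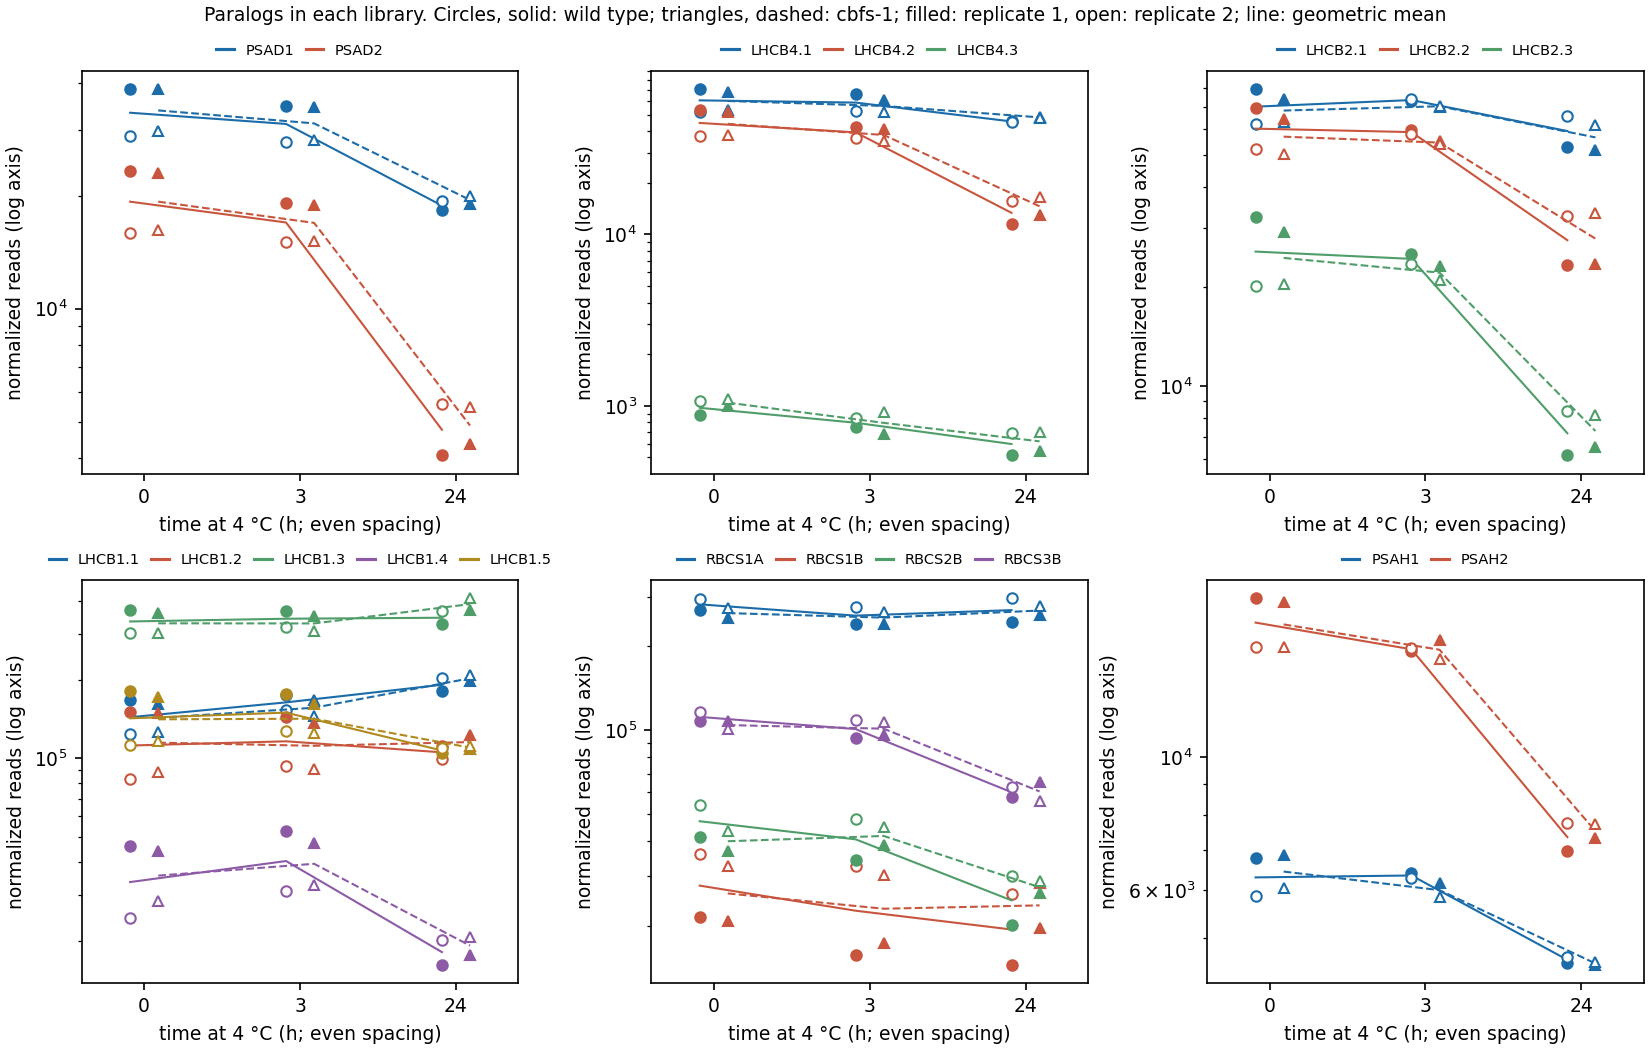
Normalized reads (log axis) of 6 paralog families at 0 h, 3 h and 24 h of cold in each library, with circles and solid lines for wild type, triangles and dashed lines for cbfs-1, filled symbols for replicate 1, open symbols for replicate 2 and lines through the geometric means. PSAD2, LHCB4.2, LHCB2.3 and PSAH2 have the largest falls of the genes drawn at 24 h. Other genes, such as LHCB2.2, PSAD1, PSAH1 and RBCS3B, also drop below their earlier range. RBCS1A stays within or near its earlier range. LHCB1.3 stays within its range in wild type and lies above it in cbfs-1.

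Of the 4 genes for the Rubisco small subunit, RBCS3B fell in both genotypes, RBCS2B passed in wild type alone, and RBCS1A and RBCS1B did not pass. RBCS1B (chr5:15383167-15385320), RBCS2B (chr5:15380907-15382071) and RBCS3B (chr5:15376988-15378642) lie in a row on chromosome 5, and RBCS1A (chr1:25048158-25049667) is on chromosome 1. In wild type RBCS3B (AT5G38410) stood at 107459 and 115916 (0 h), 93767 and 108701 (3 h) and 57530.4 and 62579.6 (24 h). RBCS3B in cbfs-1 stood at 107536 and 101246 (0 h), 96227 and 106587 (3 h) and 65443 and 55753 (24 h). Levels at 24 h lay below all earlier ones, with a change of -0.90 in wild type (SE 0.14, adjusted p = 0.000891) and -0.79 in cbfs-1 (SE 0.14, adjusted p = 0.00191). In wild type RBCS2B (AT5G38420) stood at 41492 and 53807 (0 h), 34374 and 48216 (3 h) and 20159.9 and 30061 (24 h). RBCS2B in cbfs-1 stood at 36855 and 43578 (0 h), 38806 and 45142 (3 h) and 26162 and 28768 (24 h). The 24 h libraries lay below the 0 h libraries in each genotype. Its change was -0.94 in wild type (SE 0.23, adjusted p = 0.00766) and -0.55 in cbfs-1 (SE 0.23, adjusted p = 0.0735). The RBCS2B call did not pass (adjusted p in brackets) in wild type without 0 h replicate 2 (0.0541) or 24 h replicate 1 (0.0631). The difference of the RBCS2B response between genotypes, 0.39 (95% interval -0.33 to 1.12), did not pass. RBCS1A (AT1G67090), the most abundant of the 4, stood in wild type at 269640.2 and 294951 (0 h), 239061 and 276249 (3 h) and 243954 and 296539 (24 h). RBCS1A in cbfs-1 stood at 252091 and 273189 (0 h), 240775 and 265505 (3 h) and 258258 and 278214 (24 h). Its libraries overlapped between 0 h and 24 h in both genotypes, and the change was -0.07 in wild type (95% interval -0.48 to 0.34) and 0.03 in cbfs-1 (-0.38 to 0.44). RBCS1B (AT5G38430) varied most between replicates, with a change of -0.52 in wild type (95% interval -1.53 to 0.49) and -0.14 in cbfs-1 (-1.15 to 0.87).

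The 12 photosystem I core genes held the largest number of falls, 8 in each genotype, with medians of -0.50 and -0.54. PSAD and PSAE form the stromal ridge where ferredoxin docks. In wild type PSAD2 (AT1G03130) stood at 23327 and 15934 (0 h), 19155 and 15033 (3 h) and 4066 and 5562 (24 h). PSAD2 in cbfs-1 stood at 22999 and 16166 (0 h), 18863 and 15190.5 (3 h) and 4368 and 5454 (24 h). Its 24 h libraries were far below every other library. The change of -2.02 in wild type (SE 0.25, adjusted p = 0.000220) and -1.98 in cbfs-1 (SE 0.25, adjusted p = 0.000272) was the largest fall of the 46 genes in each genotype, leaving 24.7% and 25.3% of the 0 h level. In wild type PSAD1 (AT4G02770) stood at 38492 and 28769.8 (0 h), 34611 and 27890.0 (3 h) and 18309.7 and 19353 (24 h). PSAD1 in cbfs-1 stood at 38385 and 29688 (0 h), 34435 and 28221 (3 h) and 19064 and 19913 (24 h). It also was lowest at 24 h, with a change of -0.82 in wild type (SE 0.18, adjusted p = 0.00505) and -0.79 in cbfs-1 (SE 0.18, adjusted p = 0.00641). The PSAD1 call did not pass (adjusted p in brackets) in cbfs-1 without 0 h replicate 1 (0.0551). In wild type PSAE1 (AT4G28750) stood at 33265 and 26888 (0 h), 30443 and 27373 (3 h) and 18165 and 18478 (24 h). PSAE1 in cbfs-1 stood at 32533 and 27928 (0 h), 29911 and 26395 (3 h) and 19186 and 20022 (24 h). All 24 h values lay below the others, with a change of -0.71 in wild type (SE 0.13, adjusted p = 0.00207) and -0.62 in cbfs-1 (SE 0.13, adjusted p = 0.00436). Its paralog PSAE2 (AT2G20260) stood in wild type at 5707 and 4329 (0 h), 5781 and 4589.7 (3 h) and 4499 and 4051 (24 h). PSAE2 in cbfs-1 stood at 5955 and 4785 (0 h), 5414 and 4513 (3 h) and 4714 and 4371 (24 h). PSAE2 had the smallest change of the photosystem I core genes, -0.22 in wild type (95% interval -0.60 to 0.16) and -0.23 in cbfs-1 (-0.62 to 0.15), and did not pass.

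PSAH and PSAL lie at the side of photosystem I where LHCII binds during state transitions, and PSAG and PSAK flank the core at the antenna side. In wild type PSAH2 (AT1G52230) stood at 18371 and 15246 (0 h), 15025 and 15192 (3 h) and 6964 and 7769 (24 h). PSAH2 in cbfs-1 stood at 18114 and 15249 (0 h), 15633 and 14552 (3 h) and 7336 and 7724 (24 h). At 24 h all values lay below those at 0 h and 3 h, and the change of -1.19 in wild type (SE 0.12, adjusted p = 8.01e-05) and -1.14 in cbfs-1 (SE 0.12, adjusted p = 0.000112) had the smallest adjusted p of the 46 genes. In wild type PSAH1 (AT3G16140) stood at 6781 and 5859 (0 h), 6412 and 6287 (3 h) and 4543 and 4649 (24 h). PSAH1 in cbfs-1 stood at 6863 and 6054 (0 h), 6159 and 5850.5 (3 h) and 4514 and 4550.1 (24 h). It was lower at 24 h in every library, with a change of -0.46 in wild type (SE 0.09, adjusted p = 0.00341) and -0.51 in cbfs-1 (SE 0.09, adjusted p = 0.00204). PSAH1 shares 788 bases of its annotated span with a gene on the opposite strand. In wild type PSAL (AT4G12800) stood at 50317 and 39764 (0 h), 45594 and 40316 (3 h) and 29135 and 30452 (24 h). PSAL in cbfs-1 stood at 50093 and 40094 (0 h), 44423 and 38929.9 (3 h) and 30012 and 30512 (24 h). Both replicates at 24 h lay below the rest, with a change of -0.59 in wild type (SE 0.15, adjusted p = 0.0111) and -0.57 in cbfs-1 (SE 0.15, adjusted p = 0.0136). The PSAL call did not pass (adjusted p in brackets) in wild type without 0 h replicate 1 (0.0888) or 24 h replicate 1 (0.0546), with the compared groups fitted alone (0.0577), or in cbfs-1 without 0 h replicate 1 (0.108), 24 h replicate 1 (0.0670) or 24 h replicate 2 (0.0555).

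In wild type PSAK (AT1G30380) stood at 39054 and 31411 (0 h), 37726 and 33321 (3 h) and 25324 and 23645 (24 h). PSAK in cbfs-1 stood at 40957 and 34469 (0 h), 38390.1 and 33118 (3 h) and 24998 and 23214 (24 h). Its 24 h libraries were the lowest of each genotype, with a change of -0.52 in wild type (SE 0.15, adjusted p = 0.0156) and -0.64 in cbfs-1 (SE 0.15, adjusted p = 0.00594). The PSAK call did not pass (adjusted p in brackets) in wild type without 0 h replicate 1 (0.117) or 24 h replicate 2 (0.0729), with the compared groups fitted alone (0.0689), or in cbfs-1 without 0 h replicate 1 (0.0511). In wild type PSAG (AT1G55670) stood at 36469 and 30700.0 (0 h), 32455 and 28808 (3 h) and 24982 and 23234 (24 h). PSAG in cbfs-1 stood at 36415 and 30314 (0 h), 33990.4 and 28876 (3 h) and 24695 and 23143 (24 h). After 24 h all libraries lay below those at 0 h, with a change of -0.47 in wild type (SE 0.14, adjusted p = 0.0196) and -0.47 in cbfs-1 (SE 0.14, adjusted p = 0.0202). The PSAG call did not pass (adjusted p in brackets) in wild type without 0 h replicate 1 (0.131) or 24 h replicate 2 (0.0882), with the compared groups fitted alone (0.0772), or in cbfs-1 without 0 h replicate 1 (0.142), 24 h replicate 1 (0.0597) or 24 h replicate 2 (0.103). PSAF (AT1G31330), the docking subunit for plastocyanin, stood in wild type at 56465 and 41618 (0 h), 54161 and 42675 (3 h) and 35739 and 34720.3 (24 h). PSAF in cbfs-1 stood at 56150.0 and 42792 (0 h), 52411 and 41252 (3 h) and 36104 and 33991 (24 h). Levels at 24 h were below the 0 h libraries in both genotypes, but the change of -0.46 in wild type (95% interval -0.91 to -0.01) and -0.48 in cbfs-1 (-0.93 to -0.04) did not pass. PSAN, on the lumenal side, and PSAO, near PSAL, had estimates of -0.45 to -0.29 and did not pass.

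Of the 6 genes for the lumenal proteins that stabilise and surround the manganese cluster of photosystem II, PSBO1, PSBO2 and PSBQ1 fell in both genotypes. PSBO is the manganese-stabilising protein, and PSBP and PSBQ are further extrinsic proteins of the oxygen-evolving complex. In wild type PSBO2 (AT3G50820) stood at 26915 and 21460.2 (0 h), 23333 and 22298 (3 h) and 13718 and 13932 (24 h). PSBO2 in cbfs-1 stood at 26639 and 21489 (0 h), 22423 and 20471 (3 h) and 13812 and 14426 (24 h). The 24 h libraries lay below all others, with a change of -0.80 in wild type (SE 0.14, adjusted p = 0.00119) and -0.76 in cbfs-1 (SE 0.14, adjusted p = 0.00167). In wild type PSBO1 (AT5G66570) stood at 78173 and 67356 (0 h), 73291 and 67739 (3 h) and 56619.6 and 53679.5 (24 h). PSBO1 in cbfs-1 stood at 77056 and 66856 (0 h), 69664 and 63181 (3 h) and 54253 and 54398 (24 h). It was lower at 24 h by a smaller margin, with a change of -0.40 in wild type (SE 0.13, adjusted p = 0.0317) and -0.40 in cbfs-1 (SE 0.13, adjusted p = 0.0311). The PSBO1 call did not pass (adjusted p in brackets) in wild type without 0 h replicate 1 (0.189), 24 h replicate 1 (0.0645) or 24 h replicate 2 (0.109), with the compared groups fitted alone (0.194), with no filter on low values (0.0683), or in cbfs-1 without 0 h replicate 1 (0.187), 24 h replicate 1 (0.113) or 24 h replicate 2 (0.106), with the compared groups fitted alone (0.0795), with no filter on low values (0.0670). In wild type PSBQ1 (AT4G21280) stood at 27739 and 25896 (0 h), 25069.8 and 24811 (3 h) and 16718 and 17834 (24 h). PSBQ1 in cbfs-1 stood at 28620.1 and 26770.4 (0 h), 25334 and 25271 (3 h) and 18280.1 and 19302 (24 h). The change was -0.63 in wild type (SE 0.09, adjusted p = 0.000526) and -0.56 in cbfs-1 (SE 0.09, adjusted p = 0.00114), and the 24 h libraries did not overlap those at 0 h. Its paralog PSBQ2 (AT4G05180) stood in wild type at 30922 and 22505 (0 h), 30171 and 24119.7 (3 h) and 25918 and 21135 (24 h). PSBQ2 in cbfs-1 stood at 31875 and 23431 (0 h), 31623 and 24409 (3 h) and 26077 and 22107 (24 h). Its 24 h libraries overlapped those at 0 h, and the change was -0.17 in wild type (95% interval -0.67 to 0.32) and -0.19 in cbfs-1 (-0.68 to 0.31). PSBP1 and PSBR, another lumenal subunit, had estimates of -0.41 to -0.17 and did not pass.

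Among the other photosystem II genes, PSBX and PSBY, which encode small membrane subunits, fell in both genotypes. In wild type PSBX (AT2G06520) stood at 33143 and 26847 (0 h), 31440.1 and 27188 (3 h) and 20715 and 22019.8 (24 h). PSBX in cbfs-1 stood at 31986 and 27493 (0 h), 31314 and 26672 (3 h) and 22215 and 21643 (24 h). All 24 h values lay below the 0 h libraries, with a change of -0.48 in wild type (SE 0.14, adjusted p = 0.0187) and -0.44 in cbfs-1 (SE 0.14, adjusted p = 0.0298). The PSBX call did not pass (adjusted p in brackets) in wild type without 0 h replicate 1 (0.137) or 24 h replicate 1 (0.0872), with the compared groups fitted alone (0.0744), or in cbfs-1 without 0 h replicate 1 (0.175), 24 h replicate 1 (0.0941) or 24 h replicate 2 (0.115). In wild type PSBY (AT1G67740) stood at 24237 and 21109.7 (0 h), 21576 and 20793 (3 h) and 16212 and 17311 (24 h). PSBY in cbfs-1 stood at 24509 and 21201 (0 h), 22111 and 20705 (3 h) and 16400.4 and 18382 (24 h). It was lower in every 24 h library, with a change of -0.43 in wild type (SE 0.12, adjusted p = 0.0120) and -0.39 in cbfs-1 (SE 0.12, adjusted p = 0.0193). The PSBY call did not pass (adjusted p in brackets) in wild type without 0 h replicate 1 (0.0890) or 24 h replicate 1 (0.0645), with the compared groups fitted alone (0.0698), or in cbfs-1 without 0 h replicate 1 (0.137) or 24 h replicate 1 (0.131). PSBW (AT2G30570), a small subunit that stabilises photosystem II supercomplexes, stood in wild type at 35552 and 26024 (0 h), 35459 and 27666 (3 h) and 26756 and 23916 (24 h). PSBW in cbfs-1 stood at 35752 and 27063 (0 h), 34975 and 26978 (3 h) and 26373 and 22903 (24 h). The wild type libraries at 0 h and 24 h overlapped, and the change was -0.27 in wild type (95% interval -0.74 to 0.21) and -0.34 in cbfs-1 (-0.81 to 0.13). PSBS (AT1G44575), the sensor of lumen acidity for energy quenching, stood in wild type at 25825 and 27527 (0 h), 21768 and 27405 (3 h) and 21686 and 26314 (24 h). PSBS in cbfs-1 stood at 24288 and 25476 (0 h), 22223 and 25169 (3 h) and 22159 and 25431 (24 h). Its times overlapped in both genotypes, with a change of -0.16 in wild type (95% interval -0.49 to 0.17) and -0.07 in cbfs-1 (-0.39 to 0.26).

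Ratios between paralogs within a library do not depend on the scaling between libraries, and for 10 of 11 ratios the 4 libraries at 24 h did not overlap the 4 at 0 h. The log2 ratio of PSAD1 to PSAD2 was 0.80 ± 0.08 at 0 h and 1.99 ± 0.18 at 24 h (mean ± SD, n = 4). The ratio of LHCB4.2 to LHCB4.1 was -0.44 ± 0.04 at 0 h and -1.75 ± 0.24 at 24 h, and that of LHCB2.3 to LHCB2.1 was -1.47 ± 0.18 at 0 h and -2.99 ± 0.08 at 24 h. These are the 3 widest shifts, each toward the paralog that had more reads at 0 h. For LHCB2.2 to LHCB2.1 the values were -0.24 ± 0.06 at 0 h and -1.06 ± 0.14 at 24 h, and for the chromosome 2 LHCB1 pair to the chromosome 1 trio they were -1.74 ± 0.15 at 0 h and -2.41 ± 0.06 at 24 h. For RBCS1A to the sum of the chromosome 5 genes they were 0.60 ± 0.06 at 0 h and 1.31 ± 0.08 at 24 h. PSAH1 to PSAH2 went the other way in terms of abundance, at -1.39 ± 0.04 at 0 h and -0.71 ± 0.06 at 24 h, as the gene with more reads lost more. So did PSAE1 to PSAE2, at 2.54 ± 0.08 at 0 h and 2.11 ± 0.10 at 24 h, a shift of -0.44. The remaining shifts were 0.38 for PSBO1 to PSBO2 and -0.42 for PSBQ1 to PSBQ2, and the LHCB4.3 to LHCB4.1 ratio overlapped between times. Each of the 10 had an exact two-sided permutation p of 0.0286, the smallest that 4 libraries against 4 allow. The adjusted p was 0.0571 over the 22 ratios tested, so none passed. A larger shift could not have passed either unless more of the 22 ratios had reached 0.0286. Not passing therefore does not measure the size of these shifts. At 3 h the LHCB4.2 to LHCB4.1 ratio alone did not overlap with 0 h, at -0.44 ± 0.04 at 0 h and -0.57 ± 0.04 at 3 h (exact permutation p = 0.0286, adjusted p = 0.0571). These tests pool the genotypes and treat 4 libraries per time as replicates. Same-numbered libraries of the genotypes deviated together, so the 4 are not independent, and the p-values and n = 4 overstate the replication. For PSBQ1 to PSBQ2 at 0 h, wild type and cbfs-1 had -0.157 and -0.155 in replicate 1, and 0.202 and 0.192 in replicate 2.

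**Figure D4:**
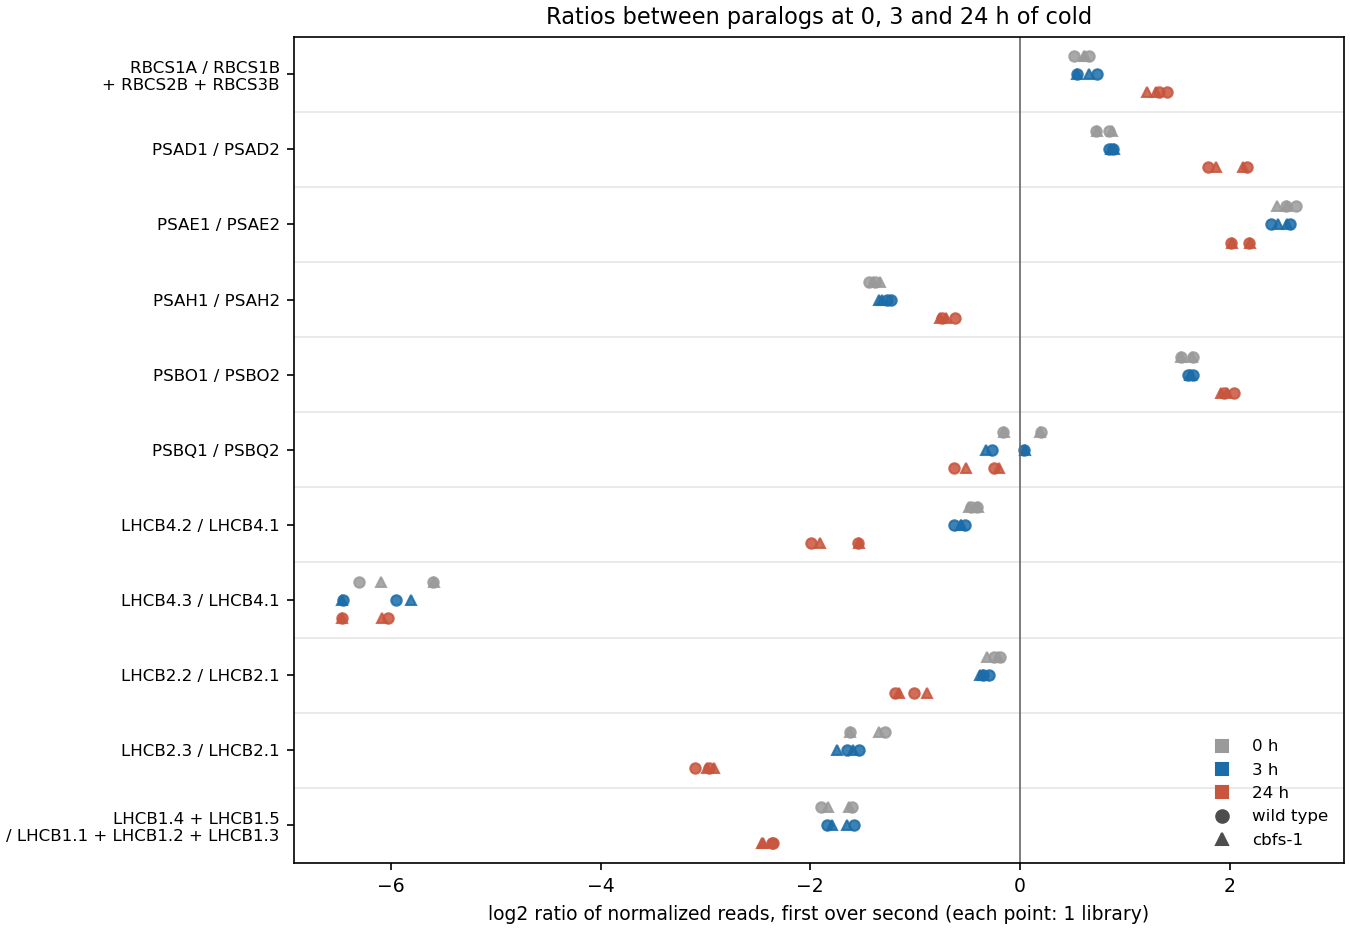
Log2 ratios between paralogs (rows) in each library at 0 h, 3 h and 24 h, with circles for wild type and triangles for cbfs-1 (horizontal axis: log2 ratio of normalized reads, first gene over second). For 10 of 11 ratios the 24 h points are clear of the 0 h points, with means up to 1.53 apart (LHCB2.3 to LHCB2.1), and LHCB4.3 to LHCB4.1 overlaps.

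At 3 h none of the 46 genes passed in either genotype by limma without a replicate term. In that fit 0 of 46 had an unadjusted p below 0.05, and 0 were called by edgeR or DESeq2. The medians were -0.03 in wild type and -0.07 in cbfs-1, against -0.02 and -0.02 over all genes, of which 10.1% and 8.85% were called. Estimates ran from -0.36 to 0.27 in wild type and from -0.39 to 0.15 in cbfs-1, and the 95% interval lay within 1 log2 unit of 0 for 44 and 45 of the genes. With the replicate number as a block, 0 genes passed in wild type (16.7% of all genes) and LHCB4.3 passed in cbfs-1 (14.8%), at -0.39 (SE 0.09, adjusted p = 0.0178). With a separate replicate term for the 24 h libraries, 4 genes passed in wild type (24.9% of all genes) and 2 in cbfs-1 (22.7%). The 2 in cbfs-1 were LHCB4.3 (-0.39, SE 0.08, adjusted p = 0.00460) and LHCA6 (-0.38, SE 0.10, adjusted p = 0.0233). Those in wild type were LHCA6 (-0.36, SE 0.10, adjusted p = 0.0262), LHCB4.3 (-0.29, SE 0.08, adjusted p = 0.0201), RBCS1B (-0.30, SE 0.09, adjusted p = 0.0434) and LHCB1.4, which was higher (0.27, SE 0.08, adjusted p = 0.0342). In each of these fits the share of all genes called was above the share of the 46. With the separate replicate term, 8 genes in wild type and 9 in cbfs-1 had an unadjusted p below 0.05.

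The mutant did not differ detectably from wild type for any of the 46 genes. At 0 h, 3 h and 24 h, 0 of 46 passed in limma, with 0 at an unadjusted p below 0.05 and 0 called by edgeR or DESeq2, against 0.0387%, 0.0290% and 0.808% of all genes called. The genotype difference of the 3 h response and that of the 24 h response passed for 0 of 46 by the same 3 tools and for 0 at an unadjusted p below 0.05 in limma, against 0.00484% and 0.00968% of all genes. At 24 h the estimates of cbfs-1 against wild type ran from -0.09 (LHCA6) to 0.29 (RBCS1B), with a median of 0.04, and the 95% interval lay within 1 log2 unit for 45 of 46. The widest interval was that of RBCS1B, -0.72 to 1.29. For the 24 h response the genotype difference ran from -0.12 (PSAK) to 0.39 (RBCS2B), and 42 of 46 intervals lay within 1 log2 unit. These intervals come from the limma fit without a replicate term. Same-numbered libraries of the genotypes deviated together, so the widths include the difference between replicates. Differences smaller than these intervals were not detectable in that fit with 2 libraries per group. With a replicate block, 0 of 46 passed for cbfs-1 against wild type at 24 h, with 1 at an unadjusted p below 0.05. With a replicate block by time these counts were 0 and 3. Intervals of the block fits are not given here.

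The replicates themselves differed in a pattern that these genes share. At 0 h and 3 h replicate 1 exceeded replicate 2 in all 4 groups for 37 of the 46 genes, against 20.9% of all genes tested. RBCS1A, RBCS1B, RBCS2B, LHCB4.3 and PSBS were lower in replicate 1 in all 4 groups, and LHCA6, LHCB2.1, RBCS3B and PSAH2 were mixed. The median log2 difference between replicates 1 and 2 was 0.35 and 0.18 in wild type and 0.31 and 0.21 in cbfs-1 at 0 h and 3 h, and -0.08 and -0.05 at 24 h, against about 0 over all genes. Of 9 clock genes, PRR7, PRR5, GI and LUX were higher in replicate 1 in all 4 groups at 0 h and 3 h, LHY and CCA1 were lower, and PRR9, TOC1 and ELF4 were mixed. LHY, a morning clock gene, stood in wild type at 1592 and 7923 (0 h), 776 and 5044 (3 h) and 2699.5 and 2337 (24 h), and in cbfs-1 at 1639 and 7514 (0 h), 873 and 5092 (3 h) and 2375 and 2088 (24 h). CCA1, its partner, stood in wild type at 2239 and 5421 (0 h), 2235 and 6721 (3 h) and 6846 and 5649 (24 h), and in cbfs-1 at 2154 and 4703 (0 h), 2392 and 6326 (3 h) and 6108 and 5038 (24 h). Both were close between replicates at 24 h. Their part in the replicate difference of the photosynthesis genes was not tested.

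**Figure D5:**
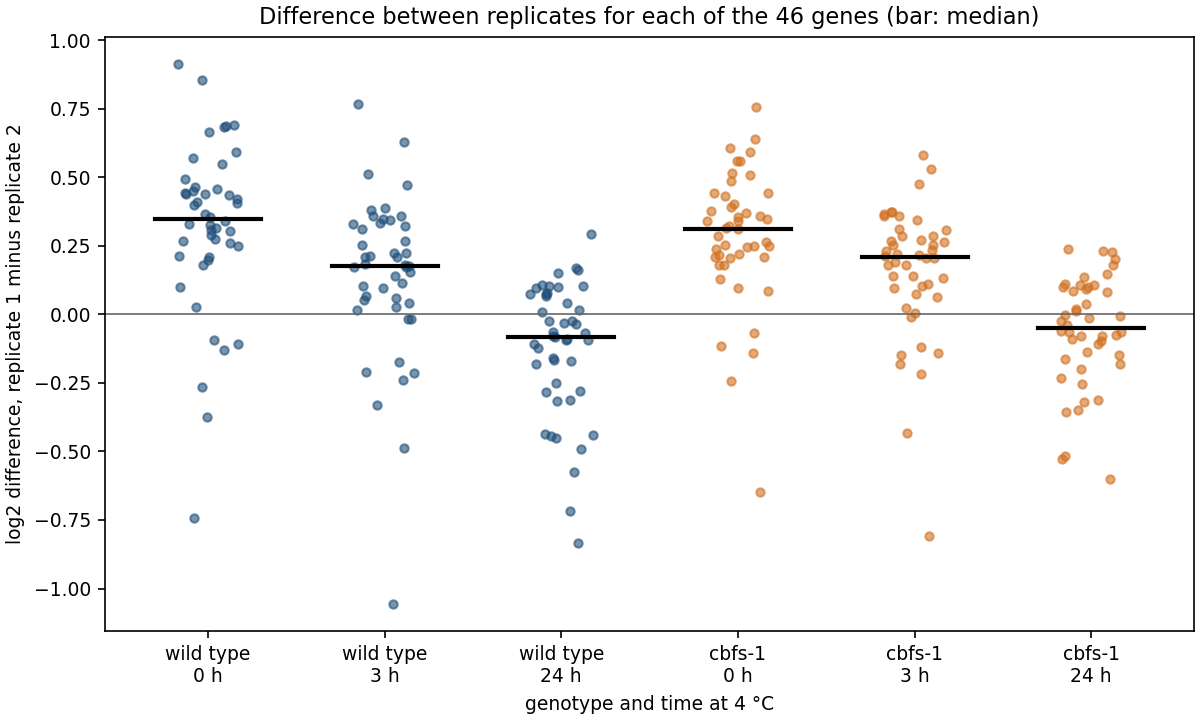
Log2 difference between replicate 1 and replicate 2 for each of the 46 genes (points) in each group, with the median as a bar (horizontal axis: genotype and time at 4 °C). The medians are 0.35, 0.18 and -0.08 in wild type and 0.31, 0.21 and -0.05 in cbfs-1 at 0 h, 3 h and 24 h.

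The 24 h change was present between libraries of the same number. From replicate 1 at 0 h to replicate 1 at 24 h, 44 of the 46 genes were lower in wild type (median -0.67) and 42 in cbfs-1 (median -0.59). Between the second replicates 39 were lower in wild type (median -0.29) and 40 in cbfs-1 (median -0.32). In all 4 of these pairs 39 genes were lower and 2 were higher. The first replicates gave the larger change in both genotypes. Over all genes tested, the median change was -1.08e-05 (replicate 1) and 0.00704 (replicate 2) in wild type. In cbfs-1 it was -0.000951 and 0.00774. The share of all genes that were lower in these pairs is not given here, so the counts have no background share beside them.

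Other nuclear genes of photosynthesis were counted at 24 h in lists, to be read against all genes tested, of which 24.3% fell and 25.7% rose in wild type and 23.3% fell and 24.9% rose in cbfs-1. Of 12 genes of electron transport and the ATP synthase, 8 fell and 1 rose in each genotype, with medians of -0.42 and -0.42. They were led by the plastocyanin gene PETE1, at -1.78 in wild type (SE 0.24, adjusted p = 0.000376) and -1.68 in cbfs-1 (SE 0.24, adjusted p = 0.000568), and the ferredoxin gene FD1, at -1.63 in wild type (SE 0.35, adjusted p = 0.00391) and -1.42 in cbfs-1 (SE 0.35, adjusted p = 0.00813). FNR2, a ferredoxin-NADP reductase gene, rose, at 0.92 in wild type (SE 0.19, adjusted p = 0.00353) and 0.85 in cbfs-1 (SE 0.19, adjusted p = 0.00555). Of 14 Calvin cycle genes 7 fell in wild type and 4 in cbfs-1, with medians of -0.50 and -0.40 and no rise. The largest fall was that of Rubisco activase, RCA, at -1.18 in wild type (SE 0.18, adjusted p = 0.000707) and -1.07 in cbfs-1 (SE 0.18, adjusted p = 0.00130). Of 18 chlorophyll synthesis genes 8 fell and 1 rose in wild type, and 7 fell and 4 rose in cbfs-1. CHLM, a methyltransferase of the magnesium branch, fell, at -1.09 in wild type (SE 0.16, adjusted p = 0.000513) and -0.96 in cbfs-1 (SE 0.16, adjusted p = 0.00115). CAO, which makes chlorophyll b for the antenna, fell, at -0.91 in wild type (SE 0.25, adjusted p = 0.0128) and -0.88 in cbfs-1 (SE 0.25, adjusted p = 0.0155). PORB, a light-dependent protochlorophyllide reductase gene, rose, at 1.80 in wild type (SE 0.62, adjusted p = 0.0350) and 1.84 in cbfs-1 (SE 0.62, adjusted p = 0.0328), and it too differed between the 0 h replicates (6570.0 and 1954 in wild type).

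Lists of regulators and plastid factors are read against the same shares. Of 9 genes for antenna insertion, thylakoid kinases and photoprotection, 4 fell and 1 rose in each genotype. STN7, the kinase that phosphorylates LHCII in state transitions, fell, at -0.65 in wild type (SE 0.08, adjusted p = 0.000279) and -0.82 in cbfs-1 (SE 0.08, adjusted p = 9.45e-05), and NPQ1, the violaxanthin de-epoxidase gene, rose, at 1.49 in wild type (SE 0.27, adjusted p = 0.00175) and 1.25 in cbfs-1 (SE 0.27, adjusted p = 0.00455). Of 8 regulators of nuclear photosynthesis genes 2 fell in wild type, and 2 fell and 1 rose in cbfs-1. PIF1, a phytochrome-interacting repressor of chlorophyll synthesis, fell, at -1.72 in wild type (SE 0.26, adjusted p = 0.000689) and -1.68 in cbfs-1 (SE 0.26, adjusted p = 0.000863). GLK1, an activator of antenna genes, passed in cbfs-1 alone, at 0.68 in wild type (SE 0.28, adjusted p = 0.0674) and 1.01 in cbfs-1 (SE 0.28, adjusted p = 0.0147), and the difference between the genotypes did not pass (0.33, SE 0.40, adjusted p = 1.000). Of 6 plastid sigma factor genes 0 passed in either genotype by limma, edgeR or DESeq2, and 2 in each genotype had an unadjusted p below 0.05 in limma. Of 9 clock genes 7 rose in each genotype, with medians of 2.00 and 1.92. TOC1, an evening clock gene, was at 347 and 352 (0 h), 2384 and 1473 (3 h) and 3853 and 3028 (24 h) in wild type. The part of the clock in the photosynthesis genes was not tested.

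Of 13 root markers, 9 fell and 0 rose in wild type at 24 h, and 7 fell and 1 rose in cbfs-1, against 24.3% of all genes lower and 25.7% higher in wild type and 23.3% and 24.9% in cbfs-1. Their summed level was 3634 to 4044 at 0 h, 3760.5 to 3789 at 3 h and 2561 to 2766 at 24 h in wild type, and 3766 to 3813, 3664 to 4029 and 2866 to 2974 in cbfs-1. CASP5 was at 0 in both wild type libraries at 24 h, and no other root marker was at 0 in any library. Root and photosynthesis transcripts were thus lower at 24 h together, and the part of tissue composition was not tested.

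Of the 46 genes, 17 overlap another annotated gene and 16 of these overlap a gene that has a row in the deposited table. Whether counting used the strand was likewise not given, so reads of such genes may be shared with their neighbours. Among the called members the longest overlaps were those of PSAH1 (788 bases), LHCB2.3 (595 bases), PSAG (479 bases) and PSAE1 (436 bases). The neighbour of PSAG is the one without a row in the deposited table. These lengths are of annotated gene spans and not of exons.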

How the data were processed

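RNA from 14-day-old seedlings was sequenced in 12 libraries, 2 for each of 6 groups defined by genotype and time at 4 °C, with groups and replicate numbers taken from the sample titles. Per the submitters' processing notes, the genome build was TAIR10 and the tools included HTSeq 0.6.0, TopHat2 2.1.0, Cufflinks 2.2.1 and DESeq2. No source used here gives their roles or settings or the strandedness. The deposited values are a signal, read counts per gene that the authors scaled by 1 size factor for each library, since whole reads could be recovered for 100% of values (within 0.001 of a read). No row without a gene name was present, and no column was left out.

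Tests were run with limma 3.58.1 in R 4.3.3 (a linear model per gene, with variances moderated along a trend) on log2(value + 1), for genes that reached 10 in 2 or more libraries, over all 12 libraries as 6 group means with 6 residual degrees of freedom. Fold changes on this scale understate those of low genes. Calls required an adjusted p (Benjamini-Hochberg, within each of 9 contrasts) below 0.05. edgeR 4.0.16 and DESeq2 1.42.0 on the recovered reads, TMM scaling, other pseudocounts and filters, replicate blocks and leaving out each library were alternatives. The limma, edgeR and DESeq2 fits were also run on simulated reads that had no deviation shared between same-numbered libraries. That trial does not cover such deviations. Deviations of same-numbered libraries correlated across genes at 0.334 to 0.565 between the 0 h and 3 h groups. On the evidence of the data alone, the numbers were treated as pairing libraries in the replicate-block fits and the same-number changes. The main limma fit had no replicate term, so its calls, standard errors and intervals are unpaired. Between 0 h and 24 h the correlation was 0.0758 in wild type and 0.0498 in cbfs-1, and between the genotypes at 24 h it was 0.242. Across the 46 genes alone these correlations were 0.921 to 0.983, 0.436 and 0.281, and 0.912, respectively. Each library had 16849042 to 22800552 reads, and reads without molecular identifiers are not independent molecules.

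The 46 genes, the other lists and the tests were chosen with earlier results of these data known. Values in every library are printed for the 22 genes called in any contrast and, for each role, the gene with the highest mean and the gene with the smallest change at 24 h; up to 4 called genes per list may be named. LHY, CCA1 and the CBF genes were named after their values were seen. Sequences, positions, overlaps and exon lengths come from the RefSeq annotation of TAIR10.1 and were joined by locus identifier, as the table has no coordinates. Protein sequences were not used here.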

Additional observations from a re-analysis of the deposited data

How the results depend on the processing

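The direction of each of the 22 calls in wild type and 21 calls in cbfs-1 at 24 h held under the 21 alternative settings, and 13 and 11 of them passed in all of them. Without each library in turn the number of the 46 genes called at 24 h was 16 to 27 in wild type and 13 to 23 in cbfs-1, lowest without cbfs-1 0 h replicate 1. It was 15 in wild type and 22 in cbfs-1 with the compared groups alone, 27 and 22 by edgeR, and 29 and 27 by DESeq2. With a replicate block the counts at 24 h were 37 and 37, and with a replicate block by time 42 and 42; at 3 h they were 0 and 1, and 4 and 2. The labels do not say what the replicate numbers share, the cause of the difference was not tested, and the block changed no call of cbfs-1 against wild type. No result reversed. Genes at the floor of 3 reads are not among the 46, and each group had 2 libraries.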
